A study of Mus musculus with 11 samples.

Results

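The genes for the proteins of the cytosolic ribosome were followed across 11 RNA-seq libraries of mouse mammary epithelial cells. A gene was taken as a member by its symbol, namely *Rpl* or *Rps* with a number, with or without a closing a, x, y or l, together with *Rplp0*, *Rplp1*, *Rplp2* and *Rpsa*. The pseudogene entries ending in -ps and the S6 kinases (*Rps6k*) were left out. Of 27179 genes in the count tables, 83 met this rule, 51 with large subunit names and 32 with small subunit names. The symbol rule misses ribosomal proteins with other names, such as *Fau* and *Rack1*, as well as *Rps3a1*, which were read beside the members. It also takes in *Rps4l* and *Rpl6l*, which RefSeq lists as a transcribed pseudogene and a pseudogene.

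MaSC/basal cells (CD24+CD29hi, enriched for mammary stem cells), luminal progenitor-enriched cells (LP, CD24+CD29loCD61+) and mature luminal-enriched cells (ML, CD24+CD29loCD61-) were sorted from the mammary glands of wild type, virgin FVB/N females, 8 weeks old by the labels, with 3 libraries each. One further library came from mammosphere cells, grown from MaSC/basal cells in non-adherent culture for 1 week, and one from the Comma Dβ line, an established mammary epithelial line that the labels trace to a BALB/c mouse. The sorted populations are enriched rather than pure, and a mammosphere library or a Comma Dβ library without a replicate allows no test. The labels divide the libraries into 3 batches. Replicate 1 of each sorted population and the mammosphere library belonged to batch 1, MaSC/basal replicates 2 and 3 with replicate 2 of LP and ML to batch 2, and replicate 3 of LP and ML with the Comma Dβ library to batch 3. MaSC/basal replicate 1 was submitted under a name that contains p53 but was labelled wild type. *Trp53* stood there at 114 CPM, where CPM is the TMM-scaled count of a gene relative to the whole library, against 120 and 95.3 CPM in the other MaSC/basal libraries, and the counts of called genes are therefore also given without this library.

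Between 19958838 and 75795034 reads were counted per library. The summed levels of the basal, luminal, LP and ML marker lists each followed the labels of the sorted populations, although ML replicate 3 held *Krt5*, a basal keratin, at 141 CPM, against 13.2 and 14.6 CPM in the other ML libraries. LP markers summed to 214 to 469 CPM in ML and 1092 to 1377 CPM in LP libraries. ML markers summed to 566 to 1440 CPM in LP and 3301 to 5548 CPM in ML libraries. The part of this spread in the differences between LP and ML cells was not tested. The summed level of 3 fibroblast markers ranged from 63.5 to 522 CPM over the sorted libraries and reached 1583 CPM for mammosphere cells and 1952 CPM for Comma Dβ cells. Markers of endothelial cells summed to between 35.0 and 73.5 CPM in MaSC/basal and between 4.58 and 30.2 CPM in luminal libraries. Leukocyte markers summed to between 13.9 and 20.2 CPM in LP, 6.46 and 9.08 CPM in MaSC/basal and 6.18 and 7.47 CPM in ML libraries, with *Cd68* at 12.3 to 19.7 CPM in LP and *Ptprc*, which defines leukocytes, at no more than 1.66 CPM in any sorted library. The endothelial sums were thus higher in MaSC/basal than in luminal libraries. Of 79 members tested below, 14 were called between MaSC/basal and LP cells (57.4% of all genes), 12 of them higher in LP (28.0% of all genes). Between MaSC/basal and ML cells 12 were called (58.7% of all genes), 7 of them higher in ML (29.7% of all genes). The leukocyte sums were highest in LP cells, as were some of the called members. The part of endothelial cells and leukocytes in these differences was not tested. The luminal markers summed to only 305 CPM in the Comma Dβ library, below all sorted libraries. In bulk RNA of this kind, fewer cells of one type and less RNA per cell cannot be told apart.

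Each cytosolic ribosome joins a small subunit, which reads the messenger RNA, to a large subunit, which forms the peptide bonds, and with few exceptions contains a single copy of each protein. The genes are therefore expressed in common, and most of their transcripts start with a run of pyrimidines, the TOP motif, through which mTORC1 signalling and the protein LARP1 set how well they are translated. Growing and dividing cells need many ribosomes, and the mammary epithelium raises protein synthesis as it expands in pregnancy and lactation. Transcript levels such as those measured here do not show how well the transcripts are translated.

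The members took between 0.922% and 1.48% of the counted reads. In MaSC/basal cells their share was 1.39%, 1.23% and 1.11% in replicates 1, 2 and 3 (1.24% ± 0.141, SD, n = 3). The shares of LP cells were 1.41%, 1.25% and 1.32% (1.33% ± 0.0791, SD, n = 3) and those of ML cells 1.48%, 1.41% and 1.25% (1.38% ± 0.116, SD, n = 3). The ranges of the sorted populations overlapped, and in each of them the library of batch 1 was the highest. The mammosphere library (1.01%) and the Comma Dβ library (0.922%) lay below all 9 sorted libraries. After TMM scaling, which adjusts the library totals so that most genes have a similar level, the members summed to 12538 ± 978 CPM in MaSC/basal cells, 14843 ± 1268 in LP cells and 13722 ± 1381 in ML cells (SD, n = 3 each), and to 8785 CPM in the mammosphere and 7625 CPM in the Comma Dβ library. LP cells thus came second by share and first by scaled sum. A single gene, *Trf*, which encodes the iron carrier transferrin, took 1.65% to 2.96% of the reads in the LP libraries. Reads on large and small subunit names stood in a ratio of 1.36 to 1.50 in the sorted libraries, 1.31 for mammosphere cells and 1.68 in the Comma Dβ library.

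**Figure D1:**
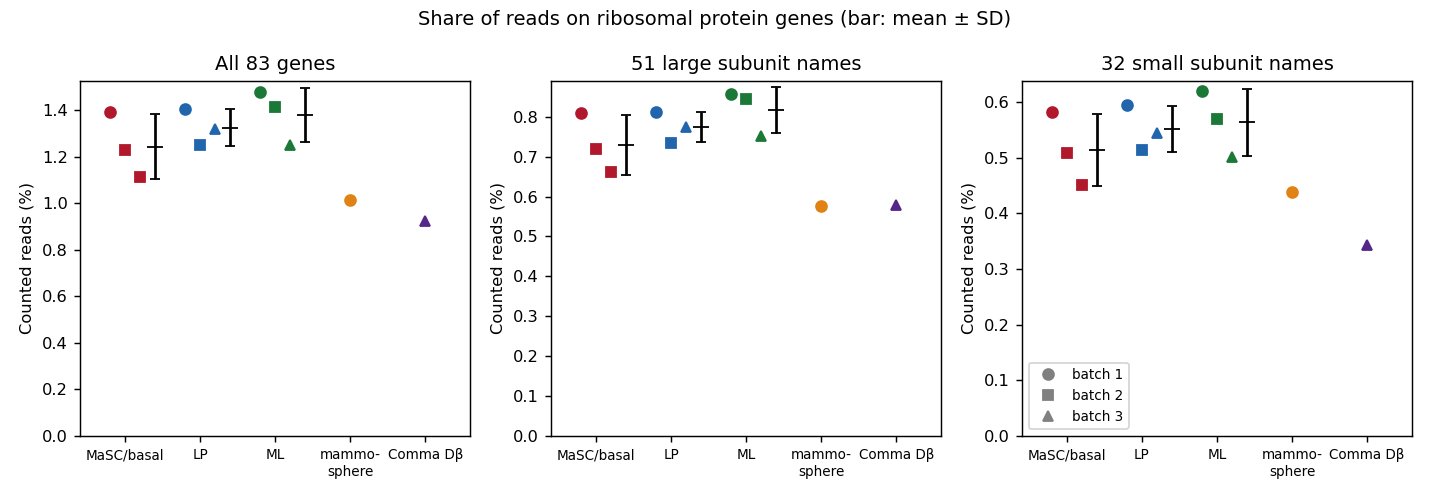
Share of counted reads (%, vertical axis) on all 83 ribosomal protein genes and on those with large and small subunit names, by sample type, with 1 point per library, shaped by batch, and bars for the mean ± SD of 3 libraries. The 3 sorted populations overlap between 1.11% and 1.48%, and the mammosphere (1.01%) and Comma Dβ (0.922%) libraries lie below them.

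These shares rest on a minority of the genes. Of the 83 members, 31 accounted for 90% of the members' reads, and *Rps3*, *Rpl8* and *Rpl4* alone for 26.1%. Per kilobase of exon, the mean level in the sorted libraries ran from 3.06 CPM for *Rpl29* to 1531 CPM for *Rplp1* over the 79 members that passed the filter on low counts used below, although both encode proteins of the same particle. Genes of this family have many processed pseudogenes, and the handling of reads that fit several genes is not given in the sources used here. Coding sequences were found for 80 members, and 71 of them had at least 1 copy of 95% identity or more in another annotated gene, with a median of 5 and a maximum of 57 copies, for *Rpl21*. The 23 members for which every 100-base window of the coding sequence occurred in a transcript of another gene had a median level of 13.5 CPM per kb. The median was 57.4 CPM per kb in 29 members with over 50% but not all of their windows shared, and 435 CPM per kb in 24 retained members with at most 50% shared. Across the 76 retained genes with coding sequences, level and percent of windows shared had a Spearman correlation of -0.69, a description across genes that share the same libraries. Levels of different members are therefore not comparable as amounts of transcript here, whereas a given gene can be compared between libraries as far as its copies moved alike, which was not tested.

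**Figure D2:**
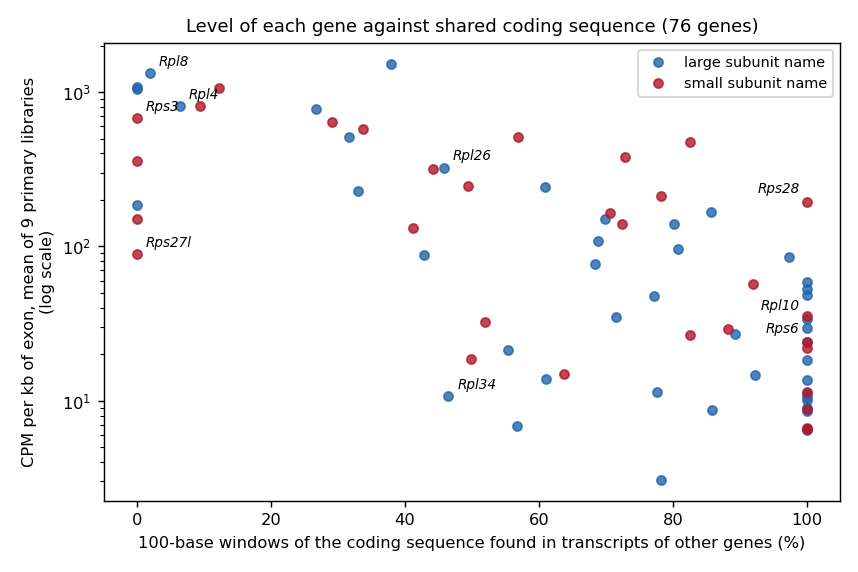
Mean level in the 9 sorted libraries (CPM per kb of exon, log scale) against the percent of 100-base windows of the coding sequence that occur in transcripts of other genes, for 76 retained ribosomal protein genes, blue for large and red for small subunit names. Genes with few or no shared windows, such as *Rps3* and *Rpl8*, sit high, and those with every window shared centre on 13.5 CPM per kb.

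The windows around the transcription start were read from RefSeq (GRCm38.p6) to see which members carry the pyrimidine run in their genomic sequence. A table of promoters matched 61 of the 83 members. A run of at least 8 C or T bases lay within 15 bases on either side of an annotated start in 27 of them (44.3%), compared with 13.9% of 27025 genes. On the opposite strand such a run occurred in 4.92% of the members and 15.3% of all genes. The motif CTTTC was found in 27.9% of the members and 4.76% of all genes on the transcribed strand, and in 3.28% and 4.22% on the other. A gene with several annotated starts was counted if any of them matched. The 30 bases around the start, in the direction of transcription, are shown for 5 members that differed between sorted populations or ranked among the most abundant and have long runs, and for 4 that differed and have none. Capitals mark the longest run of C and T.
*Rps6* (chr4:86857353-86857382, minus strand): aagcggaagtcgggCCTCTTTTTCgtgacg
*Rpl4* (chr9:64173372-64173401, plus strand): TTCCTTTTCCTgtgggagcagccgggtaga
*Rpl14* (chr9:120571502-120571531, plus strand): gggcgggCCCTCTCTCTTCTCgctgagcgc
*Rpl15* (chr14:18270972-18271001, minus strand): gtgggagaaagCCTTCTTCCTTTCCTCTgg
*Rps9* (chr7:3704026-3704055, plus strand): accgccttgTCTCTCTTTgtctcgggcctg
*Rpl26* (chr11:68901551-68901580, plus strand): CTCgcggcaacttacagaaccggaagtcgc
*Rpl10* (chrX:74270801-74270830, plus strand): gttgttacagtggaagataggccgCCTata
*Rps28* (chr17:33824548-33824577, minus strand): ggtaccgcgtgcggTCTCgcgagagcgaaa
*Rps4x* (chrX:102189377-102189406, minus strand): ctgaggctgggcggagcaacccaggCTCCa
*Rpl14*, *Rps6*, *Rps9*, *Rpl26*, *Rpl10*, *Rps28* and *Rps4x* were all lower in MaSC/basal than in LP cells, so that members with and without a long run occurred in the same group of calls. A missing run says only that these letters are not in this window.

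The sorted populations were compared pairwise with edgeR's quasi-likelihood test over the 15422 genes with more than 0.5 CPM in at least 3 libraries, and a gene was called at a false discovery rate (FDR, Benjamini-Hochberg over all these genes) under 0.05. Of the 83 members, 79 passed the filter on low counts. In at least 1 of the 3 comparisons 20 of them were called, and 59 were called in none. Of all genes tested, 57.4% were called between MaSC/basal and LP, 58.7% between MaSC/basal and ML and 31.8% between LP and ML. At least 58.7% of all genes were thus called in 1 or more comparisons. The members' changes were also smaller than those of most genes. Their median absolute log2 fold change was 0.25 for MaSC/basal against LP, 0.16 for MaSC/basal against ML and 0.18 for LP against ML, compared with 0.69, 0.72 and 0.43 over all genes tested. In each comparison the median SE was 0.19 for the members and 0.22 for all genes.

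In the comparison of MaSC/basal with LP cells, 14 of 79 members were called (17.7%), against 57.4% of all genes. LP cells were higher for 12 of them, where 28.0% of all genes were higher in LP, and MaSC/basal cells for 2, where 29.4% of all genes were. The median log2 fold change was -0.20 over the members and -0.01 over all genes, and 13 of the 79 had a value above 0. Among those called higher in LP were *Rpl10*, *Rpl17*, *Rpl3*, *Rps28*, *Rpl26*, *Rpl22*, *Rpl23*, *Rps6*, *Rpl14*, *Rps4x* and *Rps9*, with folds of 1.35 to 2.22. Called higher in MaSC/basal were *Rps4l* and *Rpl15*. Without MaSC/basal replicate 1, 12 members were called (49.5% of all genes were), 11 of them among the 14.

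*Rpl10*, whose protein is among the last to join the large subunit before it can translate, had the largest difference among genes higher in LP. It stood at 22.0, 13.7 and 17.4 CPM in MaSC/basal, 39.6, 35.9 and 42.1 CPM in LP and 26.6, 18.2 and 27.8 CPM in ML replicates. The LP libraries lay above all others without overlap, and the log2 fold change of MaSC/basal against LP was -1.15 ± 0.21 (SE, FDR = 0.00102). All its coding windows are shared, with 9 near-identical copies. *Rpl26*, a large subunit protein also known to bind the *Trp53* transcript and promote its translation, measured 127, 136 and 133 CPM in MaSC/basal, 215, 190 and 208 CPM in LP and 186, 207 and 182 CPM in ML. Every luminal library exceeded every MaSC/basal library, by a log2 difference of -0.63 ± 0.11 to LP (SE, FDR = 0.000947) and -0.54 ± 0.11 to ML (SE, FDR = 0.00234).

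*Rps28* encodes a small subunit protein near the exit of the messenger RNA and had 53.7, 41.1 and 39.3 CPM in MaSC/basal, 84.6, 59.1 and 69.7 CPM in LP and 88.6, 69.1 and 65.4 CPM in ML libraries. Its levels again did not overlap between MaSC/basal and either luminal population, with log2 fold changes of -0.67 ± 0.19 (SE, FDR = 0.0107) and -0.73 ± 0.19 (SE, FDR = 0.00631). In all, 5 of the 79 tested members were called lower in MaSC/basal than in LP and in ML cells. Among them were *Rps28*, *Rpl26*, *Rpl22* and *Rpl23*, and only *Rps4l* was called higher than in both. How many of all genes were called in the same direction against both was not counted. Taken singly, 28.0% of all genes were called lower in MaSC/basal than in LP and 29.7% lower than in ML. Called higher in MaSC/basal were 29.4% and 28.9%, so these member counts alone show no pattern particular to the members. *Rpl22*, a large subunit protein needed by developing lymphocytes, averaged 285 ± 28.9 CPM in MaSC/basal, 436 ± 52.3 in LP cells and 410 ± 30.4 in ML cells (SD, n = 3 each). *Rpl22* has no shared window, but its span overlaps another annotated gene, which holds for 19 of the 83 members, and whether the counting used strand is not given in the sources used here.

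*Rps6*, the protein phosphorylated by S6 kinases, had 27.5, 32.2 and 26.2 CPM in MaSC/basal cells, 41.1, 43.3 and 38.6 CPM in LP cells and 29.5, 34.4 and 26.4 CPM in ML cells. It was higher in LP than in both others, with log2 fold changes of -0.52 ± 0.14 for MaSC/basal against LP (SE, FDR = 0.00975) and 0.44 ± 0.14 for LP against ML (SE, FDR = 0.0367). *Rpl3*, which lies close to the peptidyl transferase centre, and *Rpl17*, at the exit of the peptide tunnel, were likewise highest in LP cells. *Rpl3* averaged 31.0 ± 6.05 CPM in MaSC/basal, 50.2 ± 9.75 in LP cells and 28.9 ± 9.03 in ML cells, and *Rpl17* 11.6 ± 1.89, 19.1 ± 2.48 and 11.9 ± 1.59 CPM (SD, n = 3 each). MaSC/basal cells were lower than LP cells by a log2 difference of -0.70 ± 0.24 for *Rpl3* (SE, FDR = 0.0309) and -0.71 ± 0.18 for *Rpl17* (SE, FDR = 0.00767). The *Rpl3* call was lost without MaSC/basal replicate 2 (FDR = 0.109), MaSC/basal replicate 3 (FDR = 0.0925) or LP replicate 1 (FDR = 0.108).

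*Rpl15*, a large subunit protein, was, beside *Rps4l*, the only member called higher in MaSC/basal than in LP cells. It measured 64.6, 67.9 and 55.6 CPM against 49.9, 46.1 and 48.0 CPM, with a log2 fold change of 0.38 ± 0.12 (SE, FDR = 0.0163). The levels did not overlap, but the call was lost without MaSC/basal replicate 2 (FDR = 0.0515) or LP replicate 2 (FDR = 0.0610).

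With library batch as a replicate block, 28 members instead of 14 were called between MaSC/basal and LP cells, 25 of them higher in LP, and all 14 earlier calls were among the 28. Of all genes, 58.35% were called with the block. Within batch 1 the median log2 difference of the members was -0.19 and within batch 2 it was -0.25. Without scaling beyond the library total, the median of all genes moved to 0.14 in this comparison, and 56.9% of all genes were called. The members' median was -0.05, and 7 members were called higher in LP and 4 higher in MaSC/basal. Relative to the median of all genes the members then stood at -0.19, the same as with TMM scaling.

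*Rps4l* had the largest log2 fold change of the 79 members in both comparisons of MaSC/basal cells. The gene is annotated on chromosome 6 (148354656 to 148355596, GRCm38) as a transcribed pseudogene, within the span of *Tmtc1*, a gene of a glycosyltransferase family. It held 10.6, 8.89 and 9.08 CPM in MaSC/basal cells, 1.73, 1.70 and 1.66 CPM in LP cells and 2.89, 3.40 and 2.46 CPM in ML cells. The 3 populations did not overlap, and MaSC/basal cells stood 5.61-fold above LP cells (log2 fold change 2.49 ± 0.21, SE, FDR = 5.82e-06) and 3.24-fold above ML cells (1.70 ± 0.20, SE, FDR = 4.83e-05). LP cells were lower than ML cells by a log2 difference of -0.79 ± 0.21 (SE, FDR = 0.0173). *Rps4l* was also present in the mammosphere library at 8.03 CPM, but it had 0 reads in the Comma Dβ library, at least 93.3-fold below the MaSC/basal mean at a floor of 3 reads in that library, which covers counting error only. *Tmtc1*, within whose span it lies, had a different order, with 16.6, 18.2 and 21.7 CPM in MaSC/basal, 78.4, 83.9 and 68.8 CPM in LP and 12.6, 34.3 and 14.9 CPM in ML cells. *Rps4x*, the X-linked gene for the small subunit protein S4, averaged 252 ± 15.6 CPM in MaSC/basal, 339 ± 29.4 in LP cells and 256 ± 44.9 in ML cells (SD, n = 3 each) and was called lower in MaSC/basal than in LP (log2 fold change -0.43 ± 0.15, SE, FDR = 0.0356).

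**Figure D3:**
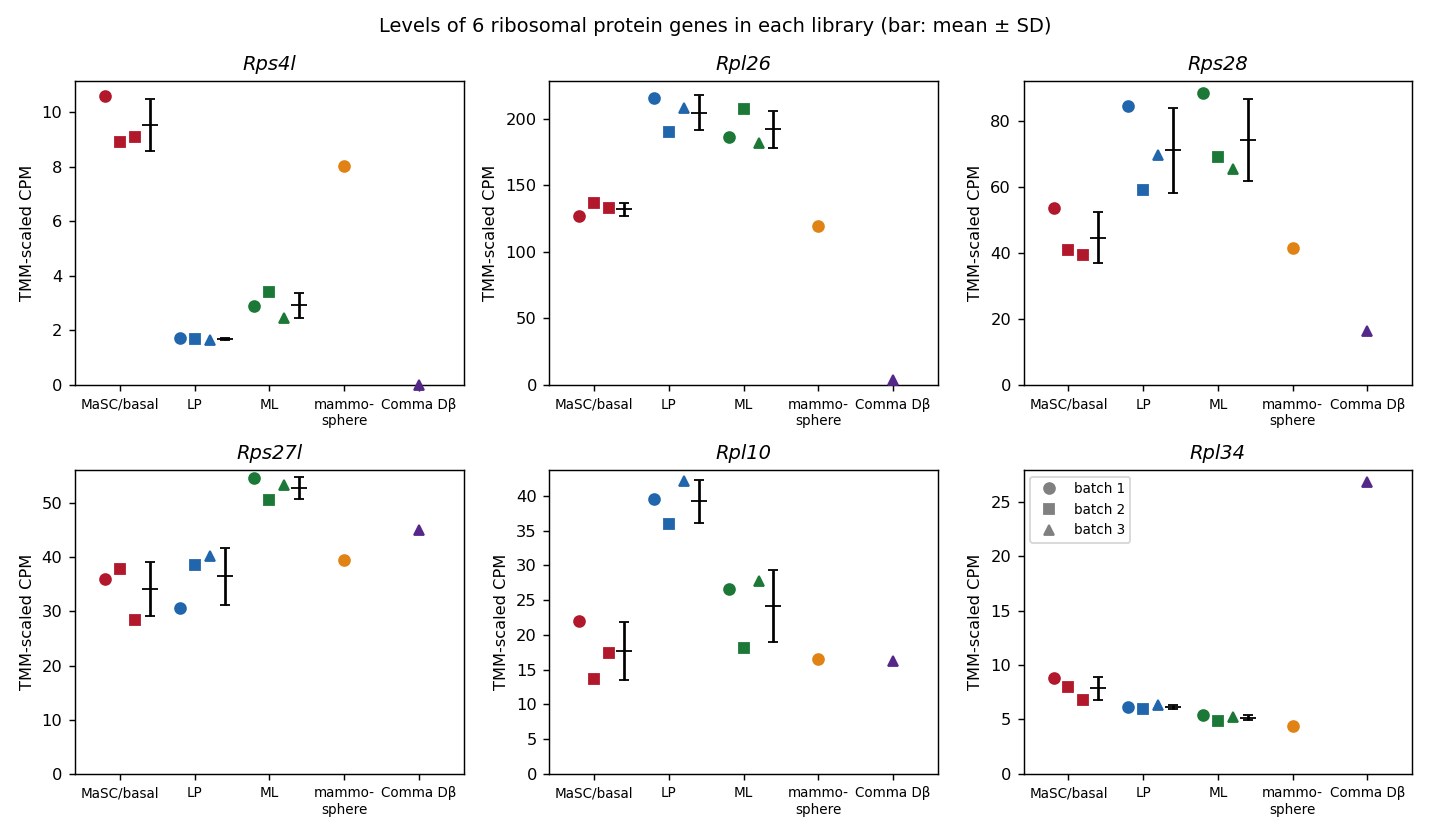
TMM-scaled CPM of *Rps4l*, *Rpl26*, *Rps28*, *Rps27l*, *Rpl10* and *Rpl34* in each library, 1 point per library shaped by batch, with bars for the mean ± SD of 3 libraries. *Rps4l* stands between 8.89 and 10.6 CPM in MaSC/basal and between 1.66 and 3.40 CPM in luminal libraries, and in the Comma Dβ library it has 0 reads, *Rpl26* 3.47 CPM and *Rpl34* 26.9 CPM.

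In the comparison of MaSC/basal with ML cells, 12 of 79 members were called (15.2%), against 58.7% of all genes. MaSC/basal cells were higher for 5 (28.9% of all genes) and ML cells for 7 (29.7% of all genes). The median log2 fold change of the members was -0.04 and that of all genes -0.01, and 35 of 79 values lay above 0. Over all 79 members there was thus no clear order between these populations, but the values differed with the percent of windows shared. Of the 24 retained members with at most 50% of windows shared, 3 had a value above 0, with a median of -0.17. Of the 52 members with over 50% shared, 31 had a value above 0, with a median of 0.05. This division was chosen after seeing the data, and the cause of the difference was not tested. Without MaSC/basal replicate 1, 10 members were called (52.0% of all genes were), 3 of them higher in MaSC/basal, and 8 of the 10 were among the 12. Leaving out ML replicate 3 also left 3 calls higher in MaSC/basal.

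Higher in MaSC/basal, beside *Rps4l*, were *Rpl27*, *Rpl34*, *Rpl10a* and *Rps12*. *Rpl27*, a large subunit protein, had 14.8, 9.99 and 8.37 CPM in MaSC/basal cells, 8.92, 5.99 and 5.61 CPM in LP cells and 6.82, 5.05 and 4.19 CPM in ML cells. MaSC/basal cells did not overlap with ML cells, and the log2 fold change was 1.04 ± 0.29 (SE, FDR = 0.0104). *Rpl34* held 8.84, 7.95 and 6.76 CPM in MaSC/basal, 6.14, 5.97 and 6.30 in LP cells and 5.37, 4.88 and 5.24 in ML cells, a log2 fold change against ML of 0.61 ± 0.17 (SE, FDR = 0.0102). Both genes have 5 or more near-identical copies, and their counted levels are low for this family. *Rpl10a*, for which ribosomes with and without the protein have been described, had a log2 fold change of 0.49 ± 0.16 (SE, FDR = 0.0200), which lost its call without MaSC/basal replicate 1 (FDR = 0.0659), MaSC/basal replicate 3 (FDR = 0.0737) or ML replicate 3 (FDR = 0.0728). The call of *Rps12* (0.46 ± 0.17, SE, FDR = 0.0409) was lost without each of 7 of the 9 sorted libraries in turn, with FDRs up to 0.153 without MaSC/basal replicate 1.

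Among those higher in ML were *Rps28* and *Rpl26*, described above, with *Rps27l*, *Rpl22*, *Rpl23* and *Rpl18*. *Rps27l*, a relative of *Rps27* and a known target of the p53 protein, measured 36.0, 37.8 and 28.4 CPM in MaSC/basal, 30.5, 38.6 and 40.3 CPM in LP and 54.6, 50.7 and 53.3 CPM in ML cells. ML cells stood apart from both other populations without overlap, with log2 fold changes of -0.63 ± 0.15 for MaSC/basal against ML (SE, FDR = 0.00446) and -0.53 for LP against ML (SE 0.15, FDR = 0.0231). It shares no coding window with another gene, while all windows of *Rps27* are shared. *Rps27* itself ranged from 5.45 to 7.28 CPM over MaSC/basal, from 6.27 to 8.32 CPM over LP and from 4.57 to 7.10 CPM over ML libraries, with overlap between all populations and no call.

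Between the luminal populations, 8 of 79 members were called (10.1%), against 31.8% of all genes, 6 of them higher in LP (14.3% of all genes) and 2 higher in ML (17.5% of all genes). The median log2 fold change was 0.14 with TMM scaling, and 67 of 79 values lay above 0, but without scaling the median was -0.04 with 2 calls, none higher in LP (34.9% of all genes were called), while the median of all genes moved to -0.19. Relative to all genes the members' median was 0.15 under both. LP was above ML for 62, 50 and 70 of the 79 members within batches 1, 2 and 3, with medians of 0.14, 0.09 and 0.25. Higher in LP were *Rpl3* (0.80 ± 0.24, SE, FDR = 0.0313), *Rpl10* (0.70 ± 0.21, SE, FDR = 0.0295), *Rpl17* (0.67 ± 0.18, SE, FDR = 0.0208), *Rps12* (0.66 ± 0.17, SE, FDR = 0.0183), *Rpl10a* (0.50 ± 0.16, SE, FDR = 0.0335) and *Rps6*. All 6 share over 80% of their windows with other genes. Higher in ML were *Rps4l* and *Rps27l*. These calls were not stable, since there were 2 calls without LP replicate 1, 4 without LP replicate 2, 5 without LP replicate 3, 2 without ML replicate 1, 4 without ML replicate 2 and 3 without ML replicate 3. The share of all genes called fell as well, from 31.8% to 21.7%, 21.9%, 27.25%, 20.1%, 31.0% and 22.0% in the same order.

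**Figure D4:**
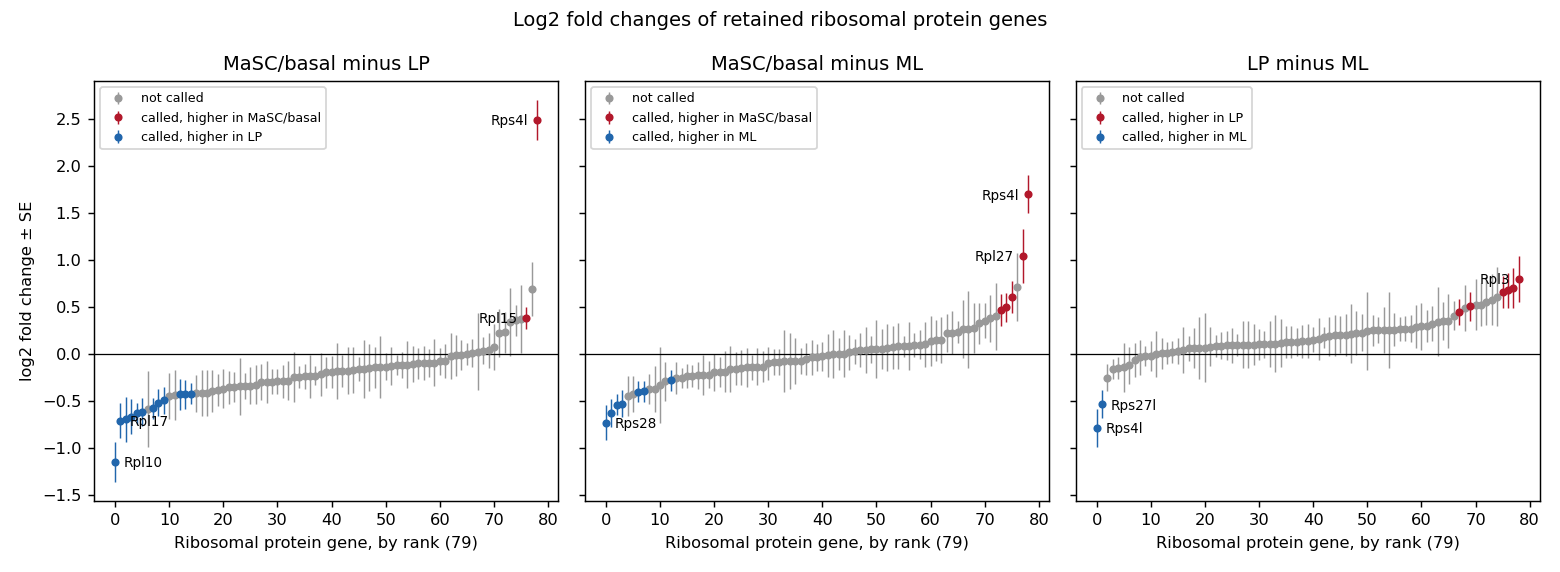
Log2 fold change ± SE of the 79 retained ribosomal protein genes, ranked within each pairwise comparison of sorted populations, with called genes (FDR under 0.05) coloured by the population in which they were higher. Most values lie close to 0, and 12 of 14 calls are higher in LP than in MaSC/basal (28.0% of all genes were called higher in LP and 29.4% in MaSC/basal). *Rps4l* is the highest value in both comparisons of MaSC/basal cells. The LP minus ML values centre on 0.14 with TMM scaling and on -0.04 without.

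The stalk of the large subunit, which recruits elongation factors, consists of the proteins of *Rplp0*, *Rplp1* and *Rplp2*. *Rplp0* averaged 905 ± 12.2 CPM in MaSC/basal, 1179 ± 149 in LP cells and 1082 ± 156 in ML cells (SD, n = 3 each), with no call (MaSC/basal against LP -0.38 ± 0.17, SE, FDR = 0.0762). *Rpl5* and *Rpl11*, which with 5S rRNA can bind and inhibit MDM2, had 23.7 ± 5.58 and 5.84 ± 1.33 CPM in MaSC/basal cells and log2 fold changes of -0.42 and -0.09 against LP, neither called. *Rpsa*, which also serves as a laminin receptor, averaged 268 ± 20.9, 266 ± 35.8 and 250 ± 32.1 CPM (SD, n = 3 each) in the same order and was not called. The 3 members with the most reads, *Rps3* (1251 ± 165 CPM in MaSC/basal), *Rpl8* (1111 ± 118) and *Rpl4* (1102 ± 28.3), had absolute log2 fold changes of 0.14 or less in every comparison of sorted cells.

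*Rps27a* encodes ubiquitin fused to a small subunit protein and was not called. *Fau*, a fusion of a ubiquitin-like protein with a small subunit protein, was higher in MaSC/basal than in ML (0.46 ± 0.17, SE, FDR = 0.0385). *Rack1*, the scaffold of the small subunit, averaged 817 ± 80.4, 961 ± 77.2 and 870 ± 122 CPM (SD, n = 3 each) and was not called. Among near-named genes outside the rule, *Rpl36al* was lower in MaSC/basal than in LP (-0.48) and ML (-0.58), *Rpl7l1* was higher than in both (0.40 and 0.46), and *Rpl22l1*, the relative of *Rpl22*, was lower than in LP (-0.60 ± 0.23, SE, FDR = 0.0424).

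Of the other members with a closing l, *Rpl32l* (from 144 to 152 CPM over the MaSC/basal, 138 to 176 over the LP and 138 to 177 over the ML libraries) and *Rpl6l* (89.4 to 122, 118 to 153 and 98.7 to 139 CPM) overlapped between all populations and were not called, as were *Rpl32* and *Rpl6*. The 4 members below the filter were *Rpl10l*, with 0 reads in all libraries, *Rpl39l* with 76, *Rpl3l* with 97 and *Rpl39* with 139 reads in all. *Rpl10l* is known from the testis and *Rpl3l* from striated muscle. Of the 76 reads of *Rpl39l*, 43 were in the mammosphere library (0.970 CPM), with at most 0.214 CPM in any sorted library and 0 reads in Comma Dβ. *Rpl39*, the widely expressed gene, has 9 near-identical copies, and its low count here was not tested further.

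In the mammosphere library the members were mostly lower than the mean of the MaSC/basal libraries. The median log2 difference was -0.44 over the 79 members and -0.01 over all genes, 71 members were below 0, and 49 lay below all 9 sorted libraries (19.3% of all genes did). Differences past a log2 of 1 in size were few, with 4 members lower (20.0% of all genes) and 0 higher (19.7% of all genes). *Rpl4* had 604 CPM, against 1045 to 1287 CPM in the sorted libraries, and *Rpl8* 576 CPM against 983 to 1343 CPM. The lowest values were those of *Rpl9* (-1.33), *Rpl10a* (-1.23) and *Rps13* (-1.19), and the highest those of *Rpl23a* (0.72), *Rps27* (0.47) and *Rpl35a* (0.40), which had under 10 CPM. *Rps27*, at 8.43 CPM, was the single one of the 79 tested members above all 9 sorted libraries (19.8% of all genes were). This is 1 library, without a replicate and with a submitted name that may stand for more than 1 culture, whose fibroblast markers summed to 1583 CPM and skeletal muscle markers to 38.1 CPM (0.543 to 6.06 in sorted libraries), and their part in these differences was not tested. Without scaling the median was -0.21, a shift by 1 factor per library that moves nearly all genes alike.

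Among Comma Dβ cells the median difference from the MaSC/basal mean was -0.61, against 0.02 over all genes, and 70 of 79 members were below 0. Here 15 members were lower by a log2 difference over 1 (24.8% of all genes) and 1 was higher (16.9% of all genes), and 61 lay below all 9 sorted libraries (27.1% of all genes did). *Rps3* had 526 CPM, against 1056 to 1515 CPM in the sorted libraries, and *Rplp0* 459 CPM, against 891 to 1345 CPM. Beside *Rps4l*, with 0 reads, 2 members fell far from the others. *Rpl26* had 102 reads (3.47 CPM, log2 difference -5.23) and *Rpl21* 106 reads (3.61 CPM, -4.37), where the sorted libraries held 127 to 215 CPM and 58.3 to 113 CPM. *Rpl34* went the other way, with 789 reads (26.9 CPM, 1.78), against 4.88 to 8.84 CPM in sorted cells, and *Rps27l* (0.41) and *Rps18* (0.24) followed. *Rpl26*, *Rpl21* and *Rpl34* have 6, 57 and 5 near-identical copies in other annotated genes. The strain, the culture, the batch and the single library of Comma Dβ cannot be told apart. Without scaling the median was -0.32, again a shift that nearly all genes share.

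Genes that build ribosomes are listed apart from the ribosomal proteins themselves. Of 44 ribosome biogenesis factors, 19 were called higher and 2 lower in MaSC/basal than in LP cells (47.7%, against 57.4% of all genes), with a median log2 fold change of 0.43. Against ML cells 32 were higher and 2 lower (77.3%, against 58.7% of all genes), with a median of 0.72, where 28.9% of all genes were higher in MaSC/basal. *Nop58*, a core protein of box C/D particles that guide rRNA methylation, stood at 518, 414 and 619 CPM in MaSC/basal, 157, 198 and 230 CPM in LP and 133, 186 and 268 CPM in ML cells (1.41 ± 0.27 and 1.40 ± 0.27, SE, FDR = 0.00121 and 0.00116). *Rrs1*, which takes part in large subunit assembly, and *Nop2*, an rRNA methyltransferase, were higher than in ML by 1.42 ± 0.23 (SE, FDR = 0.000419) and 1.31 ± 0.17 (SE, FDR = 9.09e-05). *Sbds*, which acts in the last steps of large subunit maturation, was lower than in both luminal populations (-0.64 and -0.73). Between LP and ML cells 3 were higher in LP and 1 in ML (9.09%, against 31.8% of all genes). In the mammosphere library 26 of the 44 were lower than the MaSC/basal mean by a log2 difference over 1 (20.0% of all genes were), with a median of -1.22 and *Nop58* at 57.2 CPM, while the median in Comma Dβ cells was 0.04.

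A list of 29 translation factors was drawn broadly. It also holds *Tpt1*, *Naca*, *Btf3* and *Hnrnpa1*, and it shares *Eif6* with the list of biogenesis factors. Of these 29 genes, 6 were called between MaSC/basal and LP cells, all lower in MaSC/basal (median -0.21). Against ML cells 3 were higher and 3 lower in MaSC/basal (median 0.03), and 4 were called between LP and ML cells, all higher in LP. These are 20.7%, 20.7% and 13.8% of the list, against 57.4%, 58.7% and 31.8% of all genes called. *Eif4a2*, an RNA helicase of translation initiation, was lower in MaSC/basal than in LP (-1.23 ± 0.24, SE, FDR = 0.00148) and ML (-0.89 ± 0.24, SE, FDR = 0.00868). *Eif4ebp1*, an inhibitor of initiation controlled by mTORC1, had 12.5 to 26.8 CPM in the sorted libraries, 108 CPM in the mammosphere and 82.6 CPM in the Comma Dβ library. Of 18 genes for S6 kinases and mTORC1, 3 were higher and 4 lower in MaSC/basal than in LP, 6 higher and 2 lower than in ML, and 4 higher and 1 lower in LP than in ML, which is 38.9%, 44.4% and 27.8% of the list against the same shares of all genes. *Rps6ka2*, which encodes an S6 kinase of the RSK family, was higher in MaSC/basal than in LP (2.11 ± 0.32, SE, FDR = 0.000289) and ML (2.48 ± 0.32, SE, FDR = 9.42e-05). *Larp1*, whose protein binds TOP transcripts, was lower than in LP (-0.66 ± 0.12, SE, FDR = 0.00123) and ML (-0.74 ± 0.12, SE, FDR = 0.000541).

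The mitochondrial ribosome is built from a separate set of proteins and translates the transcripts of the mitochondrial genome. Of 77 mitochondrial ribosomal protein genes tested, 18 were higher and 7 lower in MaSC/basal than in LP cells, 8 higher and 18 lower than in ML cells, and 1 was higher and 19 were lower in LP than in ML cells (median -0.34). Called were thus 32.5%, 33.8% and 26.0% of the list, against 57.4%, 58.7% and 31.8% of all genes. *Mrpl40* had between 4.88 and 8.27 CPM in MaSC/basal libraries, between 8.04 and 9.35 CPM in LP libraries and between 15.2 and 16.3 CPM in ML libraries (LP against ML -0.85 ± 0.20, SE, FDR = 0.0115). In Comma Dβ cells 26 of them were higher than the MaSC/basal mean by a log2 difference over 1 (16.9% of all genes were) and 0 lower, with a median of 0.74, where the cytosolic members had -0.61. Of 23 pseudogene entries (-ps) that passed the filter, 1 was called lower in MaSC/basal than in LP cells (4.35%) and 1 lower than in ML cells (4.35%), against 57.4% and 58.7% of all genes.

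**Figure D5:**
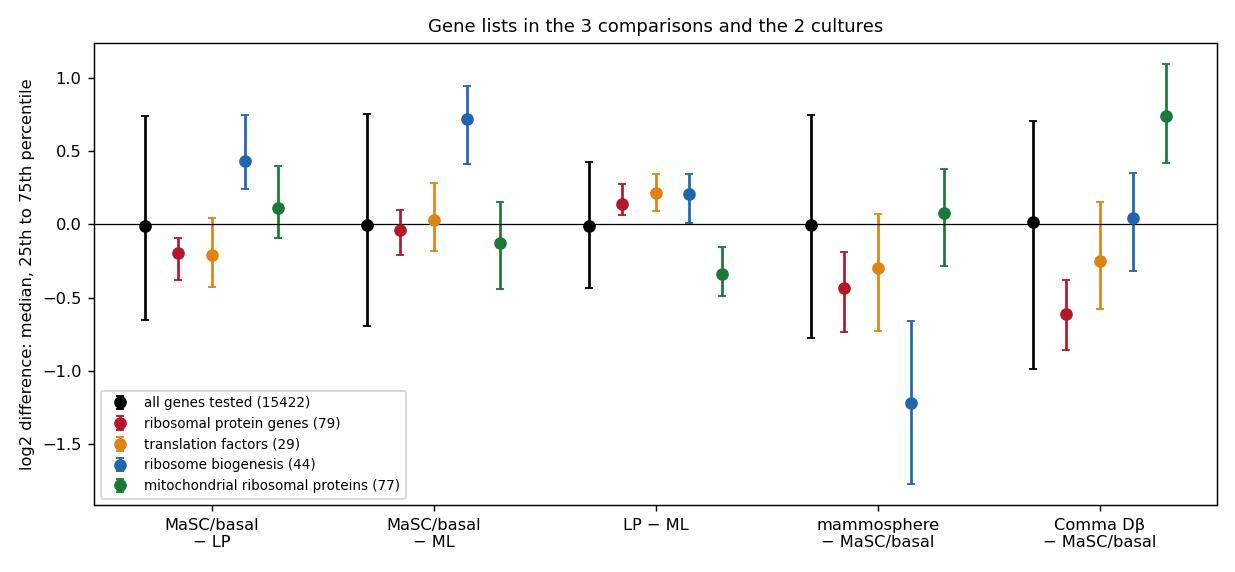
Median log2 difference (points) with the 25th to 75th percentile of genes (bars) for all genes tested, ribosomal protein genes and 3 related lists, in the 3 comparisons of sorted populations and for the 2 cultures against the MaSC/basal mean. Ribosomal protein genes centre on -0.20, -0.04 and 0.14 in the comparisons (-0.05, -0.06 and -0.04 without scaling) and on -0.44 and -0.61 in the cultures, while ribosome biogenesis factors reach 0.72 against ML and -1.22 in the mammosphere library.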

How the data were processed

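RNA was sequenced from 11 libraries in 5 sample types. The authors aligned reads to mm10 (GRCm38) with Rsubread. The deposited values are raw featureCounts counts for each Entrez gene, with its exon length, neither normalized nor filtered. The processing notes also name CASAVA 1.8.0, edgeR 3.6.2 and limma 3.20.5. Symbols came from RefSeq for 25275 genes and GENCODE for 18, and 1886 genes had none. Groups and batches were taken from the labels.

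The tests used edgeR 4.0.16 in R 4.3.3 (glmQLFit, glmQLFTest), with TMM scaling, genes over 0.5 CPM in at least 3 libraries (15422) and all 11 libraries in 1 fit with 5 group means. The SE is the log2 fold change divided by the square root of the F statistic. CPM are TMM-scaled. Mammosphere and Comma Dβ values are log2 CPM (prior count 2) minus the MaSC/basal mean, without a test. The functions were tested on simulated data. A copy is another annotated gene (GENCODE transcripts) with at least 95% identity over at least 80% of the coding sequence, and a window is shared if its 100 bases occur in one.

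Named genes were, by rule, up to 5 called members with the largest change in each direction of each comparison, members with a closing l and their namesakes, near-named genes, members of known roles, the 3 with the most reads, the 3 highest and lowest in each culture, and those below the filter. *Rps4x*, *Rpl18*, *Rpl22*, *Rpl23*, *Rps9* and *Rpl14* were named because they were called, and genes of the other lists (biogenesis, translation, S6 kinases, mitochondrial), *Rpl29*, *Tmtc1* and *Trp53* after their values were seen. Some items are not reported here. Members and lists were chosen with earlier results of these data known. The labels describe the replicates as separate samples, and p-values measure the spread between them. For pairs of replicates, counts differed by far more than sampling noise. LP and ML libraries of the same batch deviated together (correlation of deviations 0.32, 0.31 and 0.53), and MaSC/basal libraries with LP and ML libraries of their batch by -0.12 to 0.29. The pairing comes from the batch labels. Alternatives were other scalings and filters, limma voom (limma 3.58.1), DESeq2 1.42.0, the 9 sorted libraries alone, batch as a replicate block, leaving out each replicate and, chosen after seeing the data, only members with at most 50% of windows shared. With 19958838 to 75795034 counted reads per library, 3 reads correspond to 0.0399 to 0.160 CPM.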

Additional observations from a re-analysis of the deposited data

How the results depend on the processing

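The counts of called ribosomal protein genes were recomputed under 18 alternatives for each comparison, and related gene lists were not. Between MaSC/basal and LP cells, batch as a replicate block gave 28 calls (58.35% of all genes were called), 25 of them higher in LP. No scaling gave 4 calls higher in MaSC/basal and 7 higher in LP (56.9% of all genes were called). Over the fits that leave out 1 replicate, calls higher in MaSC/basal numbered 1 to 4 against LP (1 without MaSC/basal replicate 2 or LP replicate 2, 4 without MaSC/basal replicate 3) and 3 to 5 against ML (3 without MaSC/basal replicate 1 or ML replicate 3). Between LP and ML cells, no scaling left 2 calls with 0 higher in LP, and leaving out 1 replicate gave 2 to 8 calls, 2 to 6 of them higher in LP and 0 to 2 higher in ML. Of all genes, 34.9% were called there without scaling and 20.1% to 34.3% with 1 replicate left out. The block gave 15 calls between MaSC/basal and ML cells (11 of the 12 remained) and 11 between LP and ML cells (all 8 remained), and changed no count there by over 1.5 times. Of all genes, 58.9% and 36.6% were called in these 2 comparisons with the block. The median log2 fold change of the members changed sign between LP and ML without scaling (-0.037), and between MaSC/basal and ML without MaSC/basal replicate 2 (0.0058), MaSC/basal replicate 3 (0.024) or ML replicate 1 (0.044). Relative to the median of all genes, it stayed between -0.26 and -0.13 for MaSC/basal against LP, between -0.11 and 0.05 against ML and between 0.05 and 0.25 for LP against ML over all alternatives. Among the 24 retained members with at most 50% of windows shared, 0 were higher in MaSC/basal and 5 in LP, 1 in MaSC/basal and 4 in ML, and 0 in LP and 1 in ML. A further share left out of each library's total the genes other than members among the 50 with the most reads. It was 1.45% in MaSC/basal cells, 1.64% in ML cells and 1.67% in LP cells, so that LP came first. Without scaling the culture medians were -0.21 (mammosphere) and -0.32 (Comma Dβ). The TMM factors were 1.16 for the mammosphere and 1.21 for the Comma Dβ library, against 0.964 to 1.03 for MaSC/basal libraries. Dropping them therefore raised the differences of nearly all genes alike, not those of the members alone. *Rps4l*, *Rpl10*, *Rpl17*, *Rps28* and *Rpl26* kept their calls against LP under all 18 alternatives, as did *Rps4l*, *Rpl27*, *Rpl34*, *Rps28*, *Rps27l*, *Rpl26*, *Rpl22* and *Rpl23* against ML, whereas the calls of *Rpl3*, *Rpl10*, *Rpl17*, *Rps12*, *Rpl10a*, *Rps4l* and *Rps27l* between LP and ML were each lost under at least 2. The causes were not tested. Groups of 3 libraries are the limit of this design, and the shallowest library, with 19958838 reads, limits low values.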
